A study of Mus musculus with 2 samples.

Results

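The genes described here are the class II peptide editors and the endosomal enzymes that work beside them: H2-DMa, H2-DMb1, H2-DMb2, H2-Oa, H2-Ob, Ctss, Ctsb, Lgmn and Ifi30. They were chosen by name, for their place in the class II antigen presentation pathway, with earlier results of these data known. The arrays carried 12 probes for these 9 genes among 41174 non-control probes, and all 12 passed the filter on dim probes, as did 22623 probes in all, which stand for 15114 genes.

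The study compared immature B cells of mouse bone marrow that carry a self-reactive receptor with cells that carry the same receptor without its self antigen. The autoreactive cells came from BALB.B mice with the genotype 3-83Igi, Rag1-/-, H-2b. The non-autoreactive cells came from BALB/c mice with the genotype 3-83Igi, H-2d, with no Rag1 disruption listed. Both groups therefore carry the 3-83 immunoglobulin knock-in, and both were pooled cells of untreated mice, sorted as positive for B220 and negative for CD43, IgD and CD23; the mice's age is not given in the sources used here. RNA of 2 autoreactive pools (Cy5) was hybridised against non-autoreactive RNA (Cy3) on 2 Agilent two-colour arrays with the same dye orientation. Strain, H-2 haplotype, Rag1 genotype and dye all follow the groups and cannot be told apart from receptor reactivity. The labels number only the autoreactive pools, and nothing says which mice were pooled, so p-values measure the spread between these 2 arrays, which may be technical.

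Class II molecules are loaded in acidic endosomes. The proteases cathepsin S, cathepsin B and legumain cut antigen or the invariant chain there, and the thiol reductase encoded by Ifi30 opens disulfide bonds. The DM heterodimer then removes the invariant chain fragment CLIP and edits the peptides bound to class II, while the DO heterodimer, found mainly in B cells and some dendritic cells, binds DM and inhibits it.

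The promoter sequences of these genes are shown first, because 4 of the 5 DM and DO genes with values below hold the same pair of short motifs. The stretches are RefSeq sequence of build GRCm38.p6, plus strand of chromosome 17, 5′ to 3′, with an X-like motif (CC, any base, A, any 2 bases, AAC, any 2 bases and A) and a Y-like motif (GATTGG) in capitals. The motif letters were chosen after the windows of these genes were read, both strands were searched, and a pair needed a gap of 10 to 40 bases.
H2-DMb1, chr17:34153083-34153144: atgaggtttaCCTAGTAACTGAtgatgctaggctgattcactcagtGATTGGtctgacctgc
H2-DMb2, chr17:34145112-34145173: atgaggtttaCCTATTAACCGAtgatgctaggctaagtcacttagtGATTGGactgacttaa
H2-Oa, chr17:34092289-34092350: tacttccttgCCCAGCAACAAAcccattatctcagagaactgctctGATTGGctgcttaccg
H2-Ob, chr17:34238804-34238862: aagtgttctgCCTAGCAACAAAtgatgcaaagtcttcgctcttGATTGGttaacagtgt

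The gap between the motifs was 24 bases in H2-DMb1, H2-DMb2 and H2-Oa and 21 bases in H2-Ob. Of 32851 promoter windows of the same length, 3% held the X-like motif, 16.1% the Y-like motif and 0.0365% the pair. The pair was in 12 windows, 4 of them those above. The letters were chosen after the windows of these genes were read, so these 4 matches were fixed beforehand. The share of windows is therefore no measure of enrichment. The stretches of H2-DMb1 and H2-DMb2 shared 53 of 62 bases. The pair was not in either window of H2-DMa. It was also absent from the windows of the class II chain genes H2-Aa and H2-Eb1, which held the Y-like motif but no match to the X-like letters. A missing match to letters chosen in this way does not show that a promoter lacks a related motif. H2-Ab1 and Cd74 had no window to search. A match is a description of letters only. As the values below show, of the genes with the pair H2-DMb1 and H2-DMb2 were called lower in autoreactive cells, H2-Ob higher and H2-Oa neither.

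Among the 12 probes, 5 were lower and 1 was higher in autoreactive cells by limma with a Benjamini-Hochberg adjusted p under 0.05. Over all probes tested, 2.17% were called lower, 3.15% higher and 5.31% in either direction. By gene, H2-DMa, H2-DMb1, H2-DMb2 and Ifi30 were lower, H2-Ob was higher and H2-Oa, Ctss, Ctsb and Lgmn did not pass. The groups did not overlap for 7 probes lower and 1 higher in autoreactive cells, beside 21.3% and 24.4% of all tested probes. Across the 12 probes the median log2 ratios of the arrays were -0.32 and -0.34, beside 0.012 and 0.00065 over all tested probes. In bulk RNA such as this, fewer cells of a type and less RNA per cell cannot be told apart.

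**Figure D1:**
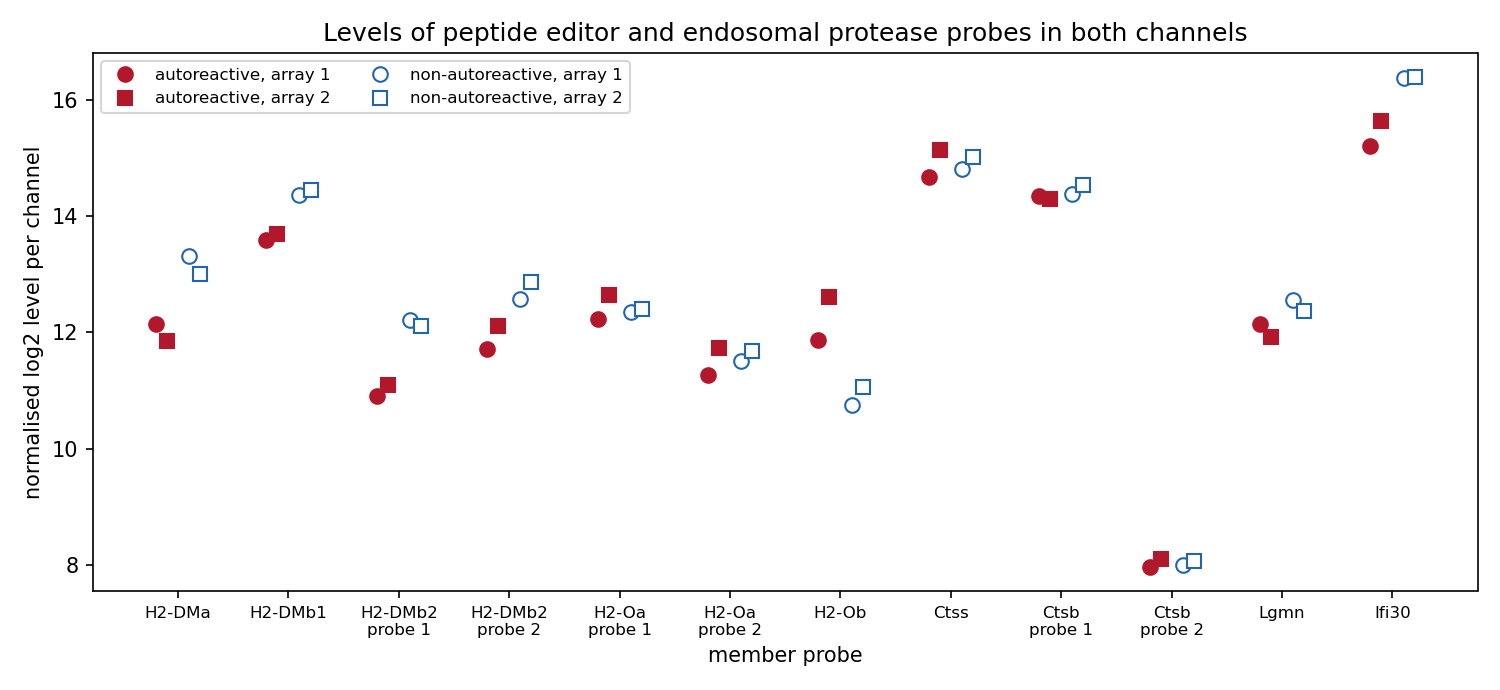
Normalised log2 levels of each probe in autoreactive (left of each pair) and non-autoreactive cells, 1 point per array. The groups did not overlap for the DM probes, H2-Ob, Ifi30, Lgmn and 1 Ctsb probe.

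H2-DMa encodes the alpha chain of DM. Its log2 level was 12.14 and 11.85 in autoreactive cells, against 13.32 and 13.01 in non-autoreactive cells. Both autoreactive values lay below both non-autoreactive values, and the log2 ratio was almost the same on both arrays, at -1.18 and -1.16. H2-DMa was 2.26-fold lower in autoreactive cells (log2 ratio -1.17 ± 0.12, SE, 2 arrays; limma adjusted p = 0.00805), but its ratio was -0.38 with each array centred on the median of all spots, a scaling that moved the median tested probe to 0.54. The call ended with the channels fitted separately (limma adjusted p = 0.0615).

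The DM beta chain is encoded in the mouse by the neighbouring genes H2-DMb1 and H2-DMb2. H2-DMb1 had log2 levels of 13.59 and 13.70 in autoreactive cells, against 14.36 and 14.44 in non-autoreactive cells. It was 1.69-fold lower in autoreactive cells (-0.76 ± 0.12, limma adjusted p = 0.0253). With median centring of all spots its ratio was 0.24, beside 0.54 for the median tested probe. It was called in 4 of the 9 other settings run and lost its call with the deposited ratios (limma adjusted p = 0.0651), with centring on the tested probes (-0.29; limma adjusted p = 0.133) and with separate channels (limma adjusted p = 0.0988).

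H2-DMb2 had a probe annotated to it alone, with log2 levels of 10.90 and 11.10 in autoreactive cells, against 12.20 and 12.11 in non-autoreactive cells. That probe was 2.23-fold lower in autoreactive cells (-1.15 ± 0.13; limma adjusted p = 0.0100), and its ratio was -0.46 with median centring of all spots. The annotation of its brighter probe lists transcripts of both beta chain genes, so the share of each is uncertain. The brighter probe had log2 levels of 11.72 and 12.12 in autoreactive cells, against 12.58 and 12.86 in non-autoreactive cells, and was 1.74-fold lower (-0.80 ± 0.12; limma adjusted p = 0.0227), but with median centring of all spots its ratio was -0.030 (limma adjusted p = 0.865) and with separate channels it was not called (limma adjusted p = 0.171). All 4 DM probes were thus called lower, with single-array ratios between -1.30 and -0.74. No DM probe kept its call with a trended and robust variance (adjusted p = 0.174 for H2-DMa).

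**Figure D2:**
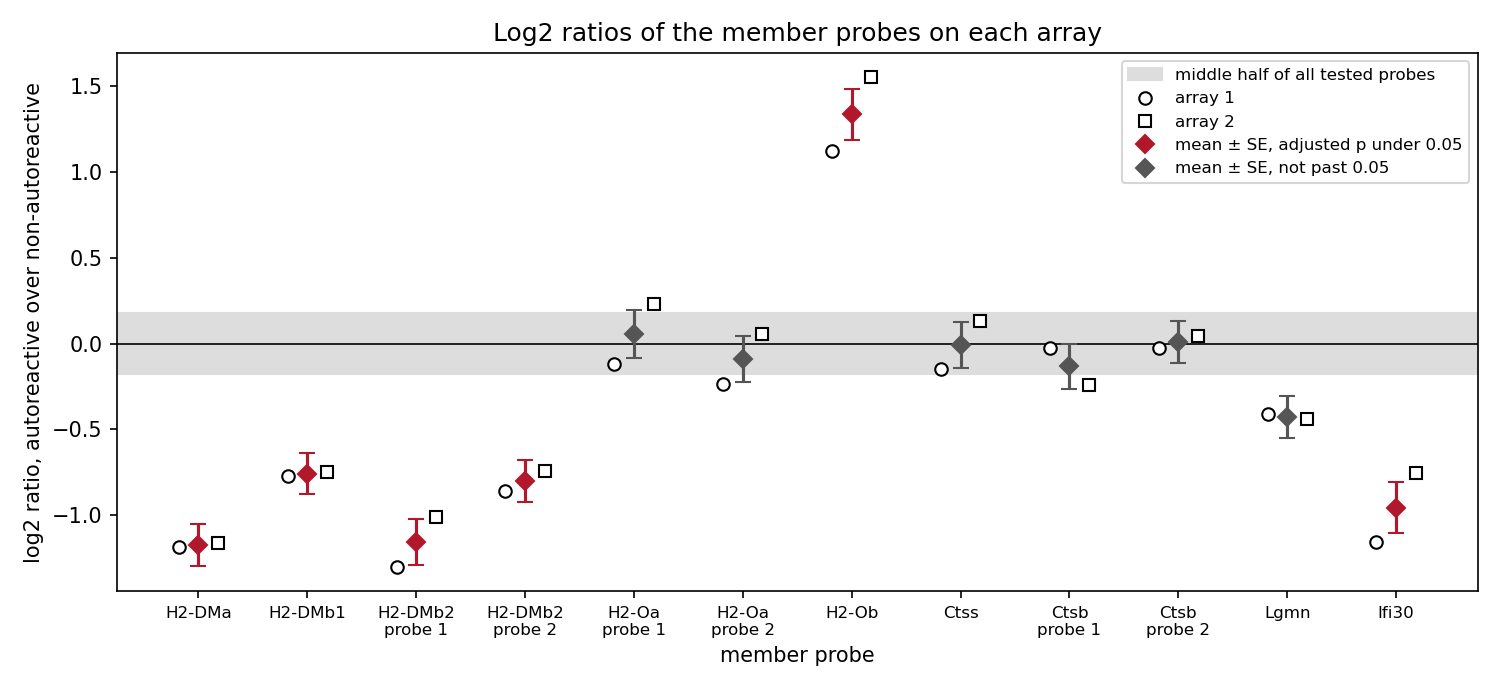
Log2 ratio of autoreactive over non-autoreactive cells for each probe on each array, with the mean. H2-Ob lies above 0, and the DM probes and Ifi30 lie below 0 on both arrays. With median centring of all spots H2-DMb1 and Ifi30 turn positive, at 0.24 and 0.34, beside 0.54 for the median tested probe. Their loess ratios less the median of tested probes of like level were -0.70 and -1.30.

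The chains of DO differed from each other. H2-Ob, the DO beta chain, had log2 levels of 11.87 and 12.61 in autoreactive cells, against 10.75 and 11.06 in non-autoreactive cells. It was 2.53-fold higher in autoreactive cells (log2 ratio 1.34 ± 0.15; limma adjusted p = 0.00923), with ratios of 1.12 and 1.55, and it was the 1 probe of the 12 called higher. It was positive under every scaling run, and its call ended only when the channels were fitted without pairing by array (adjusted p = 0.109).

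H2-Oa, the DO alpha chain, had log2 levels of 12.24 and 12.64 in autoreactive cells, against 12.36 and 12.41 in non-autoreactive cells, on its brighter probe. The groups overlapped, with ratios of -0.12 and 0.23 and a mean of 0.06 ± 0.14 (95% interval -0.29 to 0.40; limma adjusted p = 0.843). With median centring of all spots the mean was 0.83 and called higher (limma adjusted p = 0.00279), as were 63.1% of all tested probes. Its other probe gave -0.23 and 0.053. The H2-Ob ratio exceeded that of H2-Oa by 1.24 and 1.32 on the log2 scale on arrays 1 and 2, and that of H2-DMa by 2.31 and 2.71; these differences were not tested.

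The proteases did not pass the test. Ctss, cathepsin S, which carries out late steps of invariant chain cleavage in B cells, had log2 levels of 14.67 and 15.14 in autoreactive cells, against 14.81 and 15.02 in non-autoreactive cells. Its mean log2 ratio was -0.0088 (95% interval -0.33 to 0.32; limma adjusted p = 0.975). With median centring of all spots it was 1.13, and with centring on the tested probes 0.60, so its direction depends on the scaling.

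Ctsb, cathepsin B, had log2 levels of 14.35 and 14.29 in autoreactive cells, against 14.38 and 14.53 in non-autoreactive cells, on its bright probe. The mean ratio was -0.13 (95% interval -0.45 to 0.18; limma adjusted p = 0.567). Its dim probe had log2 levels of 7.97 and 8.10 in autoreactive cells, against 7.99 and 8.06 in non-autoreactive cells. Lgmn, legumain, an asparaginyl endopeptidase, had 12.15 and 11.93 in autoreactive cells, against 12.56 and 12.37 in non-autoreactive cells. The Lgmn groups did not overlap and its ratios were -0.41 and -0.44, but it missed the threshold (-0.43 ± 0.12; limma adjusted p = 0.113). Its ratio was 0.33 with median centring of all spots, beside 0.54 for the median tested probe.

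The promoter windows of Ctss, Ifi30 and Lgmn held other short motifs. Ctss (chr3:95526755-95526784, GRCm38.p6, plus strand) held an interferon-response-like motif, shown in capitals (GAAA, any 2 bases and GAAA), present in 3.44% of windows. Ifi30 (chr8:70766844-70766869, minus strand) and Lgmn (chr12:102439126-102439151, minus strand) held the E box CACGTG, also in capitals, present in 7.15% of windows. Lgmn had 2 windows, and only window 2 held the E box. The RefSeq table held windows of 8 of the 9 genes, all but Ctsb.
Ctss: gtctttaaatGAAACCGAAAtgaaagttca
Ifi30: ccaaaaacttCACGTGaccagacatg
Lgmn: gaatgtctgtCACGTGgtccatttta

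Ifi30, the lysosomal thiol reductase, had log2 levels of 15.22 and 15.63 in autoreactive cells, against 16.37 and 16.39 in non-autoreactive cells. It was 1.94-fold lower in autoreactive cells (-0.96 ± 0.15; limma adjusted p = 0.0222), with ratios of -1.16 and -0.75. It was the brightest of the 12 probes, and the 454 tested probes of like level had median ratios of 0.38 and 0.31. With median centring of all spots the Ifi30 ratio was 0.34, beside 0.54 for the median tested probe. With centring on the tested probes the Ifi30 ratio was -0.19 and not called. Ifi30 was at -1.30 with the deposited ratios, and its loess ratio less the like-level medians was -1.30. It was called in 5 of the 9 other settings run.

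**Figure D3:**
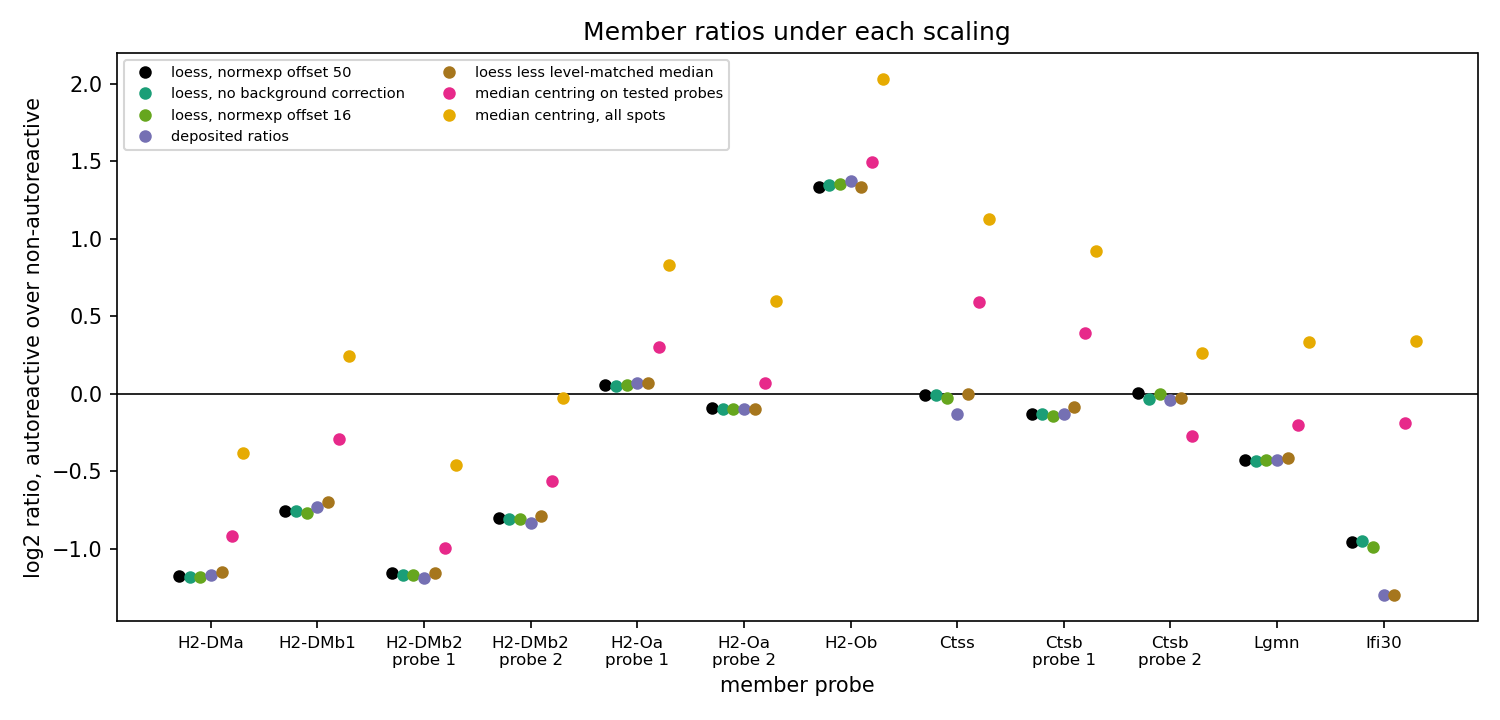
Mean log2 ratio, autoreactive over non-autoreactive, of each probe under each scaling. Median centring of all spots put the median tested probe at 0.54. H2-Ob stays above 0 and H2-DMa and the H2-DMb2 probes stay below 0 (the brighter H2-DMb2 probe at -0.030 with median centring), while Ifi30, H2-DMb1, Lgmn, Ctss, both Ctsb probes and the dimmer H2-Oa probe change sign in at least 1 scaling.

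The partners of DM and DO were read from a list of 14 class II chain and regulator genes. Of the 14, 6 were lower and 0 higher in autoreactive cells, beside 2.61% of all tested genes called lower, 3.49% called higher and 6.11% in either direction. With median centring of all spots the same list had 7 higher and 4 lower, beside 63.1% and 2.3% of all tested probes. That centring put the median tested probe at 0.54. With centring on the tested probes the list had 3 higher and 6 lower, beside 15.4% and 17.4%. H2-Aa had a log2 ratio of -1.84 (limma adjusted p = 0.00274), though its other probe read -0.24 and did not pass, and H2-Eb1 had -1.70 (limma adjusted p = 0.00331). Cd74, the invariant chain that DM clears from class II, had -1.37 (limma adjusted p = 0.00614), but -0.035 with median centring of all spots (limma adjusted p = 0.834). Ciita, the class II transactivator, had -1.21 (limma adjusted p = 0.00902), and -0.46 with that centring. H2-Ab1 was at -0.65 (limma adjusted p = 0.0385), at 0.74 with median centring of all spots and at 0.20 with centring on the tested probes; its 3 other probes read -1.39, -0.47 and -0.37. H2-Ea, which H-2b mice do not transcribe, was at -5.22 and -5.26, as the haplotype labels require. Rag1 probes read 4.14, 3.32 and 1.04 higher on the log2 scale in the cells labelled Rag1-/-; whether they lie outside the disrupted part is not given in the sources used here, so they check nothing.

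Among 14 other cathepsins and related proteases, 3 were lower and 0 higher in autoreactive cells, beside the same 2.61% and 3.49% of all tested genes. The list had 1 lower and 8 higher with median centring of all spots, beside 2.3% and 63.1% of all tested probes. That centring put the median tested probe at 0.54. The list had 2 lower and 2 higher with centring on the tested probes, beside 17.4% and 15.4%. Napsa, an aspartic protease, was at -1.61 (limma adjusted p = 0.00333) and Ctsh at -0.99 (limma adjusted p = 0.0137). Ctsz, named after its values were seen, was at -0.74 (limma adjusted p = 0.0270), but its other probe read -0.51 and did not pass. With median centring of all spots Ctsh was at 0.18 and Ctsz at 0.31. Ctsw, at -1.15, and Ctsl, at -0.80, did not pass.

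**Figure D4:**
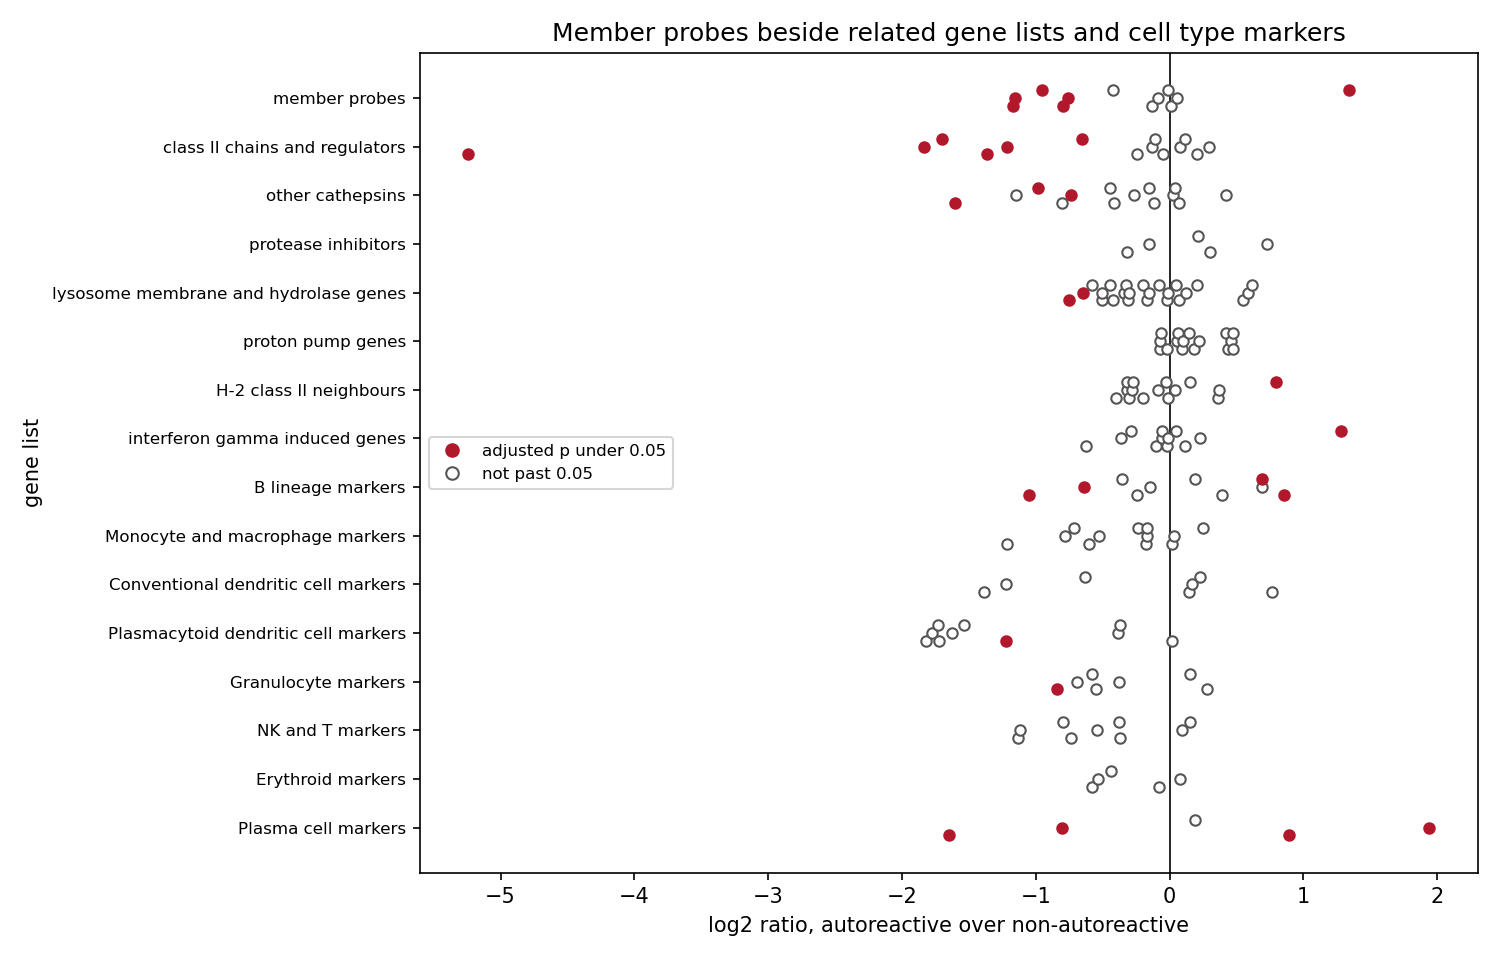
Log2 ratios, autoreactive over non-autoreactive, of the tested genes of each list, 1 point per gene (per probe in the top row). H2-Ea lies furthest below 0, and the directions are those of the loess scaling.

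DM and DO genes lie in the H-2 complex, which differs between the strains, and Ctss, Ctsb, Lgmn and Ifi30 lie on other chromosomes. For all 9 genes haplotype and receptor reactivity cannot be told apart. No probe sequences were at hand, so whether sequence differences between the haplotypes affect probe binding was not tested. The scanner files give probe positions, with no build named. By these, 30 genes or unnamed transcripts were tested within 300 kb of the H2-Ob probe. Only probes with a chromosome 17 position there were counted, and H2-Aa, at -1.84, was not among the 30. Of the 25 that are not among the 9 genes, 4 were higher and 4 lower in autoreactive cells, beside 3.49% and 2.61% of all tested genes. The 4 lower included H2-Ab1, H2-Eb1 and H2-Ea, and the 4 higher included Tap2. The median log2 ratio of the 25 was 0.13. In a list of H-2 class II neighbours, 15 genes were tested and 1 was called, Tap2, which lies between H2-DMb1 and H2-Ob, at 0.80 (limma adjusted p = 0.0248). Psmb9 was at -0.40 (0.76 with median centring of all spots), Ring1 at 0.37 and Brd2 at 0.36, none called. With median centring of all spots 13 of the 15 were called higher, beside 63.1% of all tested probes, whose median was then 0.54. With centring on the tested probes 4 were higher and 2 lower, beside 15.4% and 17.4%. An unnamed transcript model, ENSMUST00000095342, 10.7 kb from the H2-Ob probe and named after its values were seen, had ratios of 1.24 and 1.44.

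**Figure D5:**
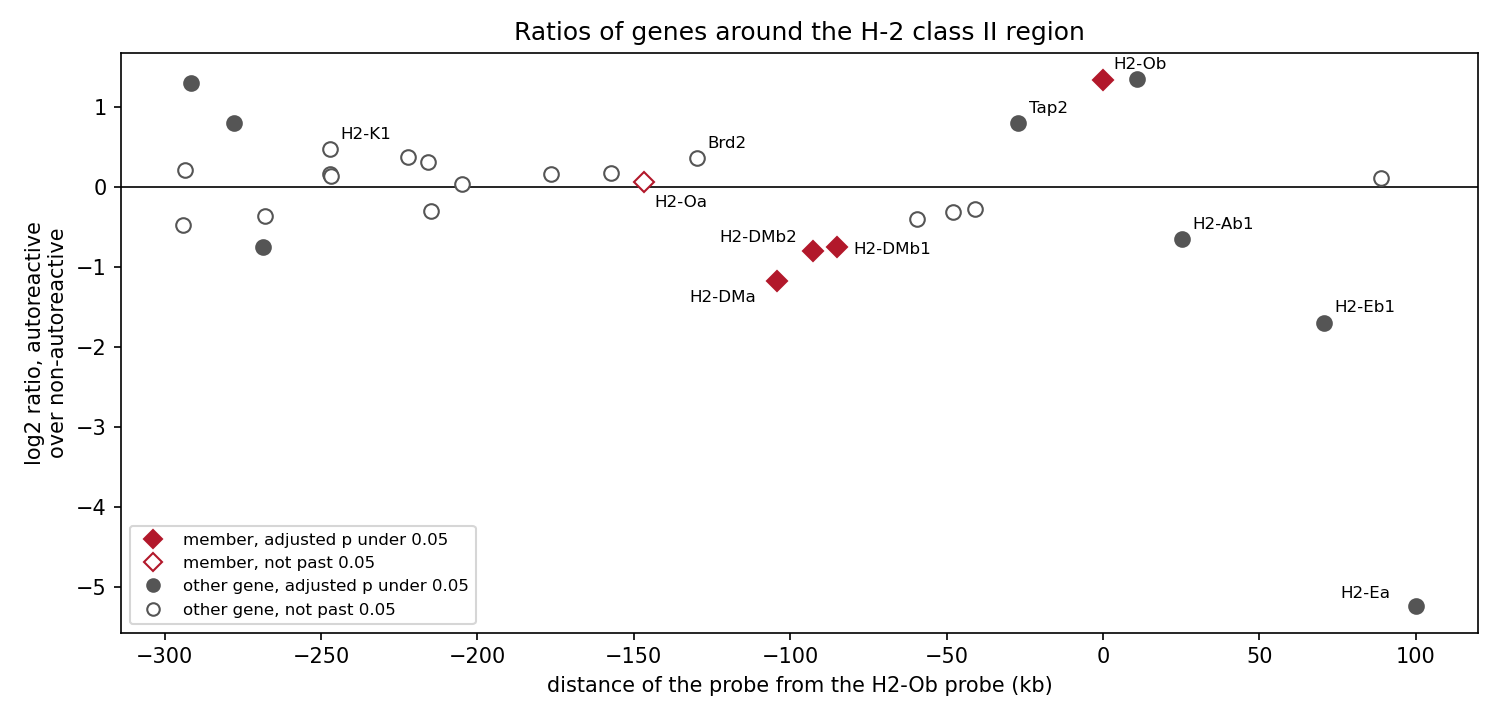
Mean log2 ratio, autoreactive over non-autoreactive, against distance in kb from the H2-Ob probe. The DM genes lie below 0 and H2-Ob above it, with Tap2 between them also above 0. H2-DMb1 and H2-Ab1 turn positive with median centring of all spots, which put the median tested probe at 0.54.

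Markers of other cell types were read beside these results, since DM, DO and the enzymes are also made by dendritic cells and macrophages. Of 10 plasmacytoid dendritic cell markers 1 was called lower, with medians of -0.73 and -2.49 for the log2 ratios of the 2 arrays. Their summed level was 22854 and 17973 in autoreactive cells, against 32757 and 46215 in non-autoreactive cells. Of 12 monocyte and macrophage markers none was called, with medians of -0.024 and -0.55. Medians were 0.098 and -0.041 for 7 conventional dendritic cell markers, 0.060 and -0.86 for 7 granulocyte markers, -0.044 and -0.74 for 9 NK and T markers, -0.39 and -0.49 for 5 erythroid markers and 0.50 and -0.12 for 5 plasma cell markers. Of these lists, calls were made for 1 granulocyte marker (lower) and 4 plasma cell markers (2 higher, 2 lower). Of 10 B lineage markers 2 were higher and 2 lower, with medians of -0.052 and 0.23; 8 were higher and 0 lower with median centring of all spots, 6 higher and 1 lower with centring on the tested probes, and 0 higher and 2 lower with the deposited ratios. The plasmacytoid list had 2 higher and 5 lower with median centring of all spots and 0 higher and 7 lower with centring on the tested probes. Over all tested probes, 63.1% were higher and 2.3% lower with median centring, and 15.4% and 17.4% with centring on the tested probes. The H2-DMa ratio was -1.18 and -1.16 on the same arrays; the part of these cells in the results was not tested.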

How the data were processed

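RNA of sorted bone marrow B cells was measured on 2 Agilent two-colour arrays, both on 1 slide and in 1 scan, so slide could not be used as a block. The deposited scanner files hold mean and background intensity per spot made, per the file headers, with Agilent software of version 9.5.1.1. The authors' deposited series table holds log10 ratios of Cy5 over Cy3 that equal the scanner's LogRatio column, with a median of 0 on each array; how they were centred is not given in the sources used here. Intensities were background corrected (normexp, offset 50), normalised by loess within arrays and averaged per probe with limma 3.58.1 in R 4.3.3. Control and outlier spots were left out. On each array a probe had to lie well above background in 1 channel or both; such probes were tested against 0 with lmFit and eBayes, with Benjamini-Hochberg adjustment over all tested probes and a threshold of 0.05. Levels are log2 channel values after Aquantile scaling. A gene of several probes is counted by its brightest. Residual degrees of freedom were 1, and the number of arrays limits the precision.

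Probes were named through RefSeq by accession (22951 probes), symbol (6659) or synonym (3109), and otherwise by the file's own name (8455). Alternatives were background correction, the deposited ratios, median centring, the dim probe filter, the variance model, separate channels and leaving out each array; centring on tested probes and level-matched medians were chosen after seeing the data. Every probe of the 9 genes is named, with up to 4 genes of largest ratio per list plus H2-Aa, H2-Ab1, Cd74, Ciita, H2-Ea and Rag1; Ctsz and ENSMUST00000095342 fall outside that rule and were named after their values were seen. The genes and lists were chosen with earlier results of these data known. The fit was tested on simulated data with set changes. It called 5.6% of 1.5-fold, 74.4% of 2-fold and 99.6% of 4-fold changes, and 7.2% of its calls were false. A change of 1.5-fold or less that was not called could therefore still be present, and so could some changes of 2-fold.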

Additional observations from a re-analysis of the deposited data

How the results depend on the processing

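With 2 arrays, no spread within the non-autoreactive RNA and 1 dye orientation, calls lean on variance shared across probes. The fit on ratios pairs the channels of each array, and the separate-channel fit is its unpaired alternative. The cause of the changes below was not tested. Over all probes, 712 were called higher and 490 lower. The higher count was 427 with the deposited ratios, 14276 (63.1%) with median centring of all spots and 3488 (15.4%) with centring on the tested probes. It was 458 with a trended and robust variance and 127 with separate channels. The lower count was 301 with no filter on dim probes, 3945 with centring on the tested probes, 16 with the trended variance and 87 with separate channels. Among the 12 probes, the 1 higher became 5 with median centring, 2 with centring on the tested probes and 0 with separate channels, and the 5 lower became 2, 3 and 1 under these settings, 0 with the trended variance and 4 with the deposited ratios. Among the context lists, 2 genes were higher and 11 lower. The higher count was 71 with median centring, 27 with centring on the tested probes, 4 with probes above background in both channels, 1 with the deposited ratios, 1 with the trended variance and 0 with separate channels, and the lower count was 5, for median centring and for separate channels, and 1 for the trended variance. Median centring turned the log2 ratio of H2-DMb1 to 0.24, the second H2-Oa probe to 0.60, Ctss to 1.13, Ctsb to 0.92, Lgmn to 0.33 and Ifi30 to 0.34. The median tested probe then stood at 0.54. Centring on the tested probes turned the second H2-Oa probe to 0.067, Ctss to 0.60, Ctsb to 0.39 and the dim Ctsb probe to -0.27. The dim Ctsb probe was also at -0.035 with no background correction, -0.00021 with offset 16, -0.038 with the deposited ratios and -0.024 less the level-matched median. Leaving out each array in turn gave -0.12 to 0.23 and -0.23 to 0.053 for the H2-Oa probes, -0.15 to 0.13 for Ctss and -0.027 to 0.043 for the dim Ctsb probe.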

Other observations

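Other gene groups of the endosome gave few calls with the loess scaling, in which 3.49% of all tested genes were higher and 2.61% lower. Over all tested probes, 63.1% were called higher and 2.3% lower with median centring of all spots, which put the median probe at 0.54. With centring on the tested probes these shares were 15.4% and 17.4%. Of 24 tested lysosome genes, 2 were lower in autoreactive cells with the loess scaling, but 15 were higher and 0 lower with median centring of all spots, and 5 higher and 4 lower with centring on the tested probes. The 2 were Psap, the precursor of the saposins, and Asah1, acid ceramidase. Psap was at a log2 ratio of -0.75 (limma adjusted p = 0.0343) but 0.41 with median centring of all spots. The other Psap probe read -0.55 and did not pass. Asah1 was at -0.64 (limma adjusted p = 0.0419), was called in 3 of 9 other settings and was at -0.019 with median centring. Neu1, a sialidase, was at 0.62 and did not pass. None of 16 proton pump genes was called by limma with the loess scaling, but all 16 were higher with median centring of all spots and 6 with centring on the tested probes, and the largest loess ratio was 0.47, for Atp6v0e, whose other probe read -0.36. None of 5 tested protease inhibitor genes of the cystatin and serpin families was called with the loess scaling. With median centring of all spots 3 were higher, and with centring on the tested probes 2 were higher and 1 lower. Cst3, cystatin C, an inhibitor of cathepsins, was at 0.73 (limma adjusted p = 0.0528). Of 12 tested interferon gamma induced genes, Socs1, a suppressor of cytokine signalling, was higher in autoreactive cells, at 1.28 (limma adjusted p = 0.00837), and Icam1 was at -0.62 and not called. With median centring 9 of the 12 were called higher, and 5 with centring on the tested probes.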
